A study of Homo sapiens with 10 samples.

Results

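The genes described here are 55 genes of mitosis and chromosome segregation, chosen by name: the cyclin and CDK1 engine, the mitotic kinases, the kinetochore and spindle checkpoint, the anaphase-promoting complex (APC/C), kinesins, cohesin and condensin. On the HG-U95Av2 array, 50 of the 55 had a probe set annotated with that gene alone, out of 8226 genes with such a probe set. For each gene the probe set with the highest mean over all 10 arrays was used. KIF20A, PRC1, ECT2 and TACC3 had none, and the CENPA probe set is shared with a neighbouring gene. CENPE, a kinesin of the kinetochore, had a mean of 1.92 on the log2 scale, just under the filter on dim probe sets at 1.93, which left 49 members tested; NCAPH was the dimmest of those tested, at 2.03 ± 0.09 with the STK38 shRNA and 2.17 ± 0.28 in the controls (log2, SD, n = 5 each).

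The cells were ST486, an established line of human Burkitt's lymphoma, a B cell tumour driven by a MYC translocation. One group of 5 arrays came from cells that carried a lentiviral shRNA against the kinase gene STK38, and the other 5 from cells with a lentiviral non-target control shRNA; all 10 arrays are of the 60 h time point. The labels name 1 STK38 shRNA, without its sequence, and 1 line, so an effect of the hairpin on other transcripts cannot be told apart from an effect of STK38. Whether the replicates were grown as separate cultures is not stated in the labels; the p-values then describe only how these arrays scatter, and that scatter may be technical.

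Cells enter mitosis when cyclin B and CDK1 are freed from inhibition by the kinases WEE1 and PKMYT1. Chromosomes are then compacted by condensin and topoisomerase II, held in sister pairs by cohesin, and attached through kinetochores to a spindle built by kinesins and Aurora kinases. The checkpoint proteins BUB1, BUB3, BUB1B, MAD2L1 and TTK hold back the APC/C until every kinetochore is attached; CDC20 and UBE2C then let it destroy securin (PTTG1) and cyclin B, which frees separase (ESPL1) to cut cohesin. Many of these genes are transcribed mainly in G2 and M phase, and Burkitt's lymphoma is known for a very high share of cycling cells.

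STK38 itself had a log2 signal of 2.83 ± 0.21 with its shRNA and 5.02 ± 0.22 in the controls, with no overlap (SD, n = 5 each). Precision is limited by having 5 arrays a group. Deposited log2 values spanned 0.35 to 12.65, and the median of an array lay between 2.12 and 2.25. STK38 shRNA replicate 4 stood apart from its group. Its mean correlation with the other 4 arrays was 0.982, against 0.995 to 0.997 between those 4, and its 75th percentile was 3.54 where the other 9 arrays lay at or above 3.91. It gave the lowest value of its group at 29 of the 49 tested members, and the median deviation of the members from the control mean was -0.55 on it, against -0.23 to -0.12 on the other STK38 shRNA arrays. Member calls that changed without this array are given with and without it. Of 8 B cell markers, 7 were above the array background on all 10 arrays; PAX5 was above it on none. The mean over the B cell list was 5.55 to 5.74 with the STK38 shRNA and 5.73 to 5.86 in the controls. Of the 8 T cell markers, 5, with CD3D, CD3E and CD3G among them, were above background on no array, yet the mean over the list was 2.46 to 2.58 with the STK38 shRNA and 2.72 to 2.83 in the controls, and the 3 that were tested (CD247, LCK and TRBC1) were called lower. The part of this shift in the results below was not tested. List means for monocyte markers (1.79 to 2.02 and 1.78 to 1.91), epithelial markers (2.10 to 2.44 and 2.05 to 2.25), fibroblast and endothelial markers (1.81 to 2.09 and 1.80 to 1.85) and erythroid markers (1.59 to 1.86 and 1.71 to 1.81) overlapped between STK38 shRNA and control arrays. The ACTB signal ratio of 3' to 5' probe sets, a sign of RNA quality, was 0.93 ± 0.093 and 0.93 ± 0.096 (log2, SD, n = 5 each, two-sided exact permutation p = 0.976), and that of GAPDH 0.29 ± 0.071 and 0.27 ± 0.081 (p = 0.659, exact permutation).

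With the STK38 shRNA, CENPF of the kinetochore, the cohesin gene SMC1A, the topoisomerase gene TOP2A and the lamin gene LMNB1 fell by 2.09-fold to 4.43-fold. CDC20, PTTG1 and UBE2C, which act at the exit from metaphase, and CDK1 with its partner CKS2, rose by 1.21-fold to 1.29-fold. A probe set was called at a limma adjusted p under 0.05, with adjustment over all 7535 probe sets. Of the 49 tested members, 15 were called lower and 5 higher. Without some single arrays, CDK1 and UBE2C were no longer called higher, nor MAD2L1, CDC27 and SMC3 lower. Over all 7535 probe sets, 15.8% were called lower and 14.1% higher, so that 29.9% were called in either direction. The members were thus called lower at a share of 30.6% and higher at 10.2%, and their median log2 difference was -0.21 beside 0.018 for all probe sets tested. At 16 members, 12 lower and 4 higher, the ranges of the groups were separate, as they were at 22.1% of all probe sets (12.8% lower and 9.33% higher). The falls reached further than the rises: 4 members, CENPF, SMC1A, TOP2A and LMNB1, fell by at least 2-fold and 0 rose by as much, beside 2.91% and 1.33% of all probe sets. Without replicate 4 the count of such falls was 3, since SMC1A then had -0.99. At an adjusted p under 0.01, 9 members were lower and 3 higher, beside 11.2% and 8.63% of all probe sets. In bulk RNA, fewer cells in mitosis and less RNA of a gene per cell cannot be told apart.

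**Figure D1:**
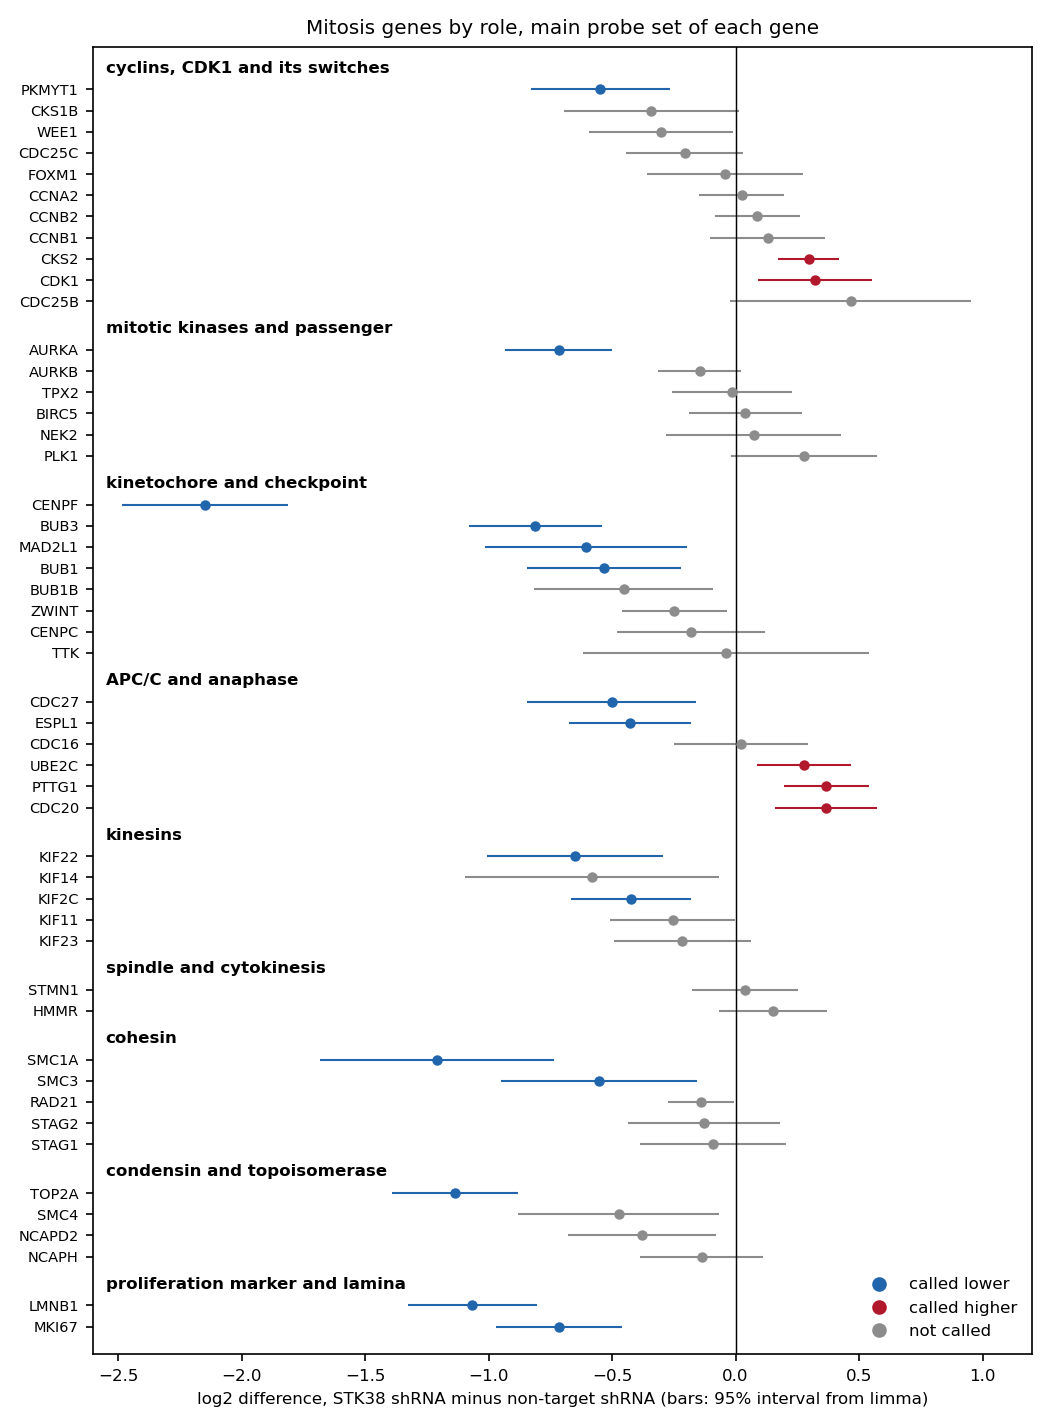
Log2 difference (STK38 shRNA minus non-target shRNA, horizontal axis) of the 49 tested members, grouped by role, with 95% intervals from limma. With all 10 arrays, kinetochore, kinesin, cohesin and condensin genes lie left of 0, while CDC20, PTTG1, UBE2C, CKS2 and CDK1 are the 5 called higher.

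The promoters of the members with the largest called changes in each direction are shown so that their motifs can be set side by side. Windows run from 250 bases before to 50 bases after the RefSeq start of the gene (GRCh38.p14, 300 bases, 5′ to 3′ on the gene's strand); capitals mark matches, on either strand, to the cell cycle homology region (TTTGAA or TTCGAA), the CCAAT box (CCAAT), the E-box (CACGTG) and the E2F site (TTTCGCGC or TTTGGCGC). CENPF and SMC1A fell the most, and CDC20 and PTTG1 rose the most.
CENPF (chr1:214602945-214603244, plus strand): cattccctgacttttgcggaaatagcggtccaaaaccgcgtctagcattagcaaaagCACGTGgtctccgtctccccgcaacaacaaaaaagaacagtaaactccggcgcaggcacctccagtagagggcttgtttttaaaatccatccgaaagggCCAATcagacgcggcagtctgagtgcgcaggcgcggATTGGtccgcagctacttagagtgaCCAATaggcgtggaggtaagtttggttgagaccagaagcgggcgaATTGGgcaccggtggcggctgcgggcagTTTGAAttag
SMC1A (chrX:53422679-53422978, minus strand): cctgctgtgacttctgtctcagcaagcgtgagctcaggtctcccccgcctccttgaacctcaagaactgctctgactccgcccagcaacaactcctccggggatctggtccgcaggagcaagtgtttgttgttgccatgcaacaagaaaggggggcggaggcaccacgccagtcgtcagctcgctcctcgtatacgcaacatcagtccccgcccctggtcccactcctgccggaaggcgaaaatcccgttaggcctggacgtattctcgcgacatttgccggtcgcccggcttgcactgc
CDC20 (chr1:43358731-43359030, plus strand): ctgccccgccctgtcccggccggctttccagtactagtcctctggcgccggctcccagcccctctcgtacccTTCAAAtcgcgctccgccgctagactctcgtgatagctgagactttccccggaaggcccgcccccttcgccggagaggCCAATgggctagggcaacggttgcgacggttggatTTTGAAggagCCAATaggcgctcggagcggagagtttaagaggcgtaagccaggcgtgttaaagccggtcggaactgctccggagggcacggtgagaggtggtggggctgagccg
PTTG1 (chr5:160421605-160421904, plus strand): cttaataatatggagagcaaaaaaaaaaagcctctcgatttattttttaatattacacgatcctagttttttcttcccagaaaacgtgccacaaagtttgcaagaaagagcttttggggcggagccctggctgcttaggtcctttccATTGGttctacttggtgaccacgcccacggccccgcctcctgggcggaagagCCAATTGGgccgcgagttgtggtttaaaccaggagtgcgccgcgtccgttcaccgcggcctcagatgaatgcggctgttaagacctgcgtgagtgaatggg
The cell cycle homology region is bound by the DREAM and MuvB complexes, which time G2 and M phase transcription, the CCAAT box by NF-Y, and the E-box by MYC with MAX. CENPF held 4 CCAAT boxes, an E-box and a homology region, CDC20 held 2 CCAAT boxes and 2 homology regions, PTTG1 held 3 CCAAT boxes, of which the pair nearest the start overlap, and SMC1A held none of the 4 motifs. Of 45 members with a window, 26 held a homology region (57.8%, against 16.6% of all 27305 windows of this length) and 35 a CCAAT box (77.8% against 35.7%). An E-box was found in 6 (13.3% against 7.43%) and an E2F site in 2 (4.44% against 1.18%). The homology region was in 8 of 12 windows of members called lower, in 3 of 4 of those called higher and in 12 of 23 of those not called. Among origin licensing genes it was in 2 of 17 windows and the E2F site in 5 of 17. A match describes the letters only, and no test was made of these shares.

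Among the genes that switch CDK1 on and off, 2 of 11 were called higher and 1 lower (18.2% and 9.09%), shares near the 14.1% and 15.8% of all probe sets. CKS2, a small subunit that binds CDK1, read 9.35, 9.39, 9.26, 9.40 and 9.45 on STK38 shRNA replicates 1 to 5 and 9.08, 9.12, 9.14, 9.08 and 8.95 on the control arrays. Every STK38 shRNA array lay above every control array, a rise of 0.30 on the log2 scale (SE 0.058, adjusted p = 0.00127). CKS1B, its close relative, read 7.58 to 8.25 with the STK38 shRNA and 7.75 to 8.68 in the controls; the groups overlapped, and the difference of -0.34 was not called (95% interval -0.69 to 0.01). It was called lower without control replicate 1 (-0.49, adjusted p = 0.0183) and with array weights (-0.37, adjusted p = 0.0396). CDK1, the mitotic kinase, read 6.95, 6.93, 6.98, 6.97 and 7.05 with the STK38 shRNA and 6.52, 6.76, 6.93, 6.74 and 6.33 in the controls. The STK38 shRNA arrays were tightly grouped and just above the highest control, and the difference of 0.32 was called (SE 0.11, adjusted p = 0.0346); the other CDK1 probe sets had 0.05 and 0.02 and were not called. That call was lost without STK38 shRNA replicate 1, 2, 3 or 5 or control replicate 1 or 5 (adjusted p from 0.0537 to 0.0824) and after median centring of the arrays (adjusted p = 0.0600). It was also lost with no filter (adjusted p = 0.0661), with the replicate block (0.0519) and for the mean of the CDK1 probe sets (0.13, adjusted p = 0.306).

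PKMYT1, the membrane kinase that keeps CDK1 inactive, read 3.57, 3.33, 3.72, 3.12 and 3.33 with the STK38 shRNA and 3.90, 3.94, 3.89, 3.93 and 4.15 in the controls. The groups did not overlap, and the fall was 0.55 on the log2 scale, or 1.46-fold (SE 0.13, adjusted p = 0.00522). Another PKMYT1 probe set fell by 0.60 (adjusted p = 0.000823), and the dimmest, not above background on any array, was not called. WEE1, the nuclear kinase with the same target, was not called at its brighter probe set (difference -0.30, 95% interval -0.59 to -0.01, adjusted p = 0.118; called at -0.40 without control replicate 5, adjusted p = 0.0318), while its dimmer probe set fell by 0.87 (SE 0.18, adjusted p = 0.00182) with no overlap; 4 of 5 STK38 shRNA arrays were above background there. CDC25B, a phosphatase that activates CDK1, turned on replicate 4: the STK38 shRNA arrays read 5.07, 5.00, 5.16, 3.70 and 4.74, against 3.98 to 4.41 in the controls. With all arrays its difference of 0.47 was not called (SE 0.23, adjusted p = 0.150), and without replicate 4 it was 0.72 and called higher (adjusted p = 0.000150). CDC25C was above background on 2 STK38 shRNA and 3 control arrays and was not called.

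The cyclins were not called at their brighter probe sets, nor was FOXM1, the forkhead factor that activates many G2 and M genes. CCNB1, cyclin B1, differed by 0.13 at its brighter probe set (95% interval -0.10 to 0.36) and was called higher at the other, by 0.29 (SE 0.10, adjusted p = 0.0452), with overlapping groups at both. That call was lost after median centring (0.28, adjusted p = 0.0717), with no filter (adjusted p = 0.0890) and with the replicate block (adjusted p = 0.0586). CCNB2 read 7.76 ± 0.05 with the STK38 shRNA and 7.67 ± 0.14 in the controls (log2, SD, n = 5 each; difference 0.09, 95% interval -0.08 to 0.26). CCNA2, cyclin A2, read 7.59 ± 0.12 and 7.57 ± 0.08 (difference 0.02, 95% interval -0.15 to 0.20). FOXM1 differed by -0.04 (95% interval -0.36 to 0.27).

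Of the mitotic kinases and their partners, AURKA alone was called among 6. The share called lower, 16.7%, was near the 15.8% of all probe sets, and 0 were called higher, beside 14.1%. AURKA, which builds the spindle poles, read 5.85, 5.86, 5.72, 5.82 and 5.80 on the STK38 shRNA arrays and 6.71, 6.31, 6.48, 6.42 and 6.71 on the controls. All 5 arrays sat within a narrow band below the lowest control, and the fall was 0.72 on the log2 scale (SE 0.10, adjusted p = 8.16e-05). Its other probe set fell by 0.96 (SE 0.14, adjusted p = 0.000129). AURKB, the Aurora kinase of the centromere, had 7.97 ± 0.14 against 8.12 ± 0.08 and was not called (difference -0.15, 95% interval -0.31 to 0.02). BIRC5, or survivin, its partner in the chromosomal passenger complex, had a difference of 0.04, TPX2, the activator of AURKA on the spindle, of -0.01, the centrosomal kinase NEK2 of 0.07 and PLK1, Polo-like kinase, of 0.28 (95% interval -0.02 to 0.57); none was called.

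The kinetochore and checkpoint genes held the largest change of all members. CENPF, a large protein of the outer kinetochore, read 2.76, 2.58, 2.71, 2.28 and 2.83 with the STK38 shRNA and 5.21, 4.44, 4.93, 4.61 and 4.70 in the controls. The groups stood more than 1.5 log2 units apart, and the fall was 2.15 (SE 0.16, adjusted p = 1.65e-07), or 2.06 without replicate 4, the array on which CENPF was not above background. Of 8 tested genes of this group, 4 fell, 0 rose, and all 8 had a difference below 0 with all arrays. Their median was -0.49 (-0.36 without replicate 4). Without replicate 4 the difference of TTK was above 0, at 0.29. Among all probe sets, 15.8% were called lower and 14.1% higher. BUB3, the checkpoint protein that recruits BUB1 to kinetochores, read 7.62, 7.68, 7.57, 6.97 and 7.54 against 8.46, 8.15, 8.43, 8.29 and 8.10, with no overlap. It fell by 0.81 (SE 0.13, adjusted p = 0.000186) and by 0.68 without replicate 4, its lowest array; a further probe set fell by 0.90 (adjusted p = 1.07e-06).

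BUB1, the checkpoint kinase, fell by 0.53 (SE 0.15, adjusted p = 0.0120), from 4.78 to 5.42 on the control arrays to 4.30 to 4.81 on the STK38 shRNA arrays, so that the groups just touched. Without replicate 4 the difference of BUB1 was -0.46 (adjusted p = 0.0118). MAD2L1, which with BUB1B forms the inhibitor of the APC/C, read 6.39, 6.10, 5.49, 5.42 and 6.29 against 6.62, 6.41, 6.50, 6.24 and 6.94. STK38 shRNA replicates 3 and 4 were far lower than the other 3 arrays, of which replicates 1 and 5 lay within the range of the controls. It fell by 0.61 (SE 0.19, adjusted p = 0.0256). Without replicate 4 the difference was -0.48 and still called (adjusted p = 0.0304). The difference stayed between -0.59 and -0.49 without STK38 shRNA replicate 3 (adjusted p = 0.0727), control replicate 1 (0.0587) or control replicate 5 (0.0720), but was no longer called, and its second probe set, with a difference of -0.49, was not called (adjusted p = 0.0651). BUB1B, or BUBR1, was just short of the threshold with all arrays (difference -0.45, SE 0.17, adjusted p = 0.0574) and just past it without STK38 shRNA replicate 1 (-0.52, adjusted p = 0.0439) or replicate 4 (-0.27, adjusted p = 0.0479). Replicate 4 was its lowest array at 5.47, where the others read 6.27 to 6.50. ZWINT, which anchors checkpoint proteins to the kinetochore, was not called (difference -0.25, adjusted p = 0.0764). CENPC, the inner kinetochore protein, was not called at its brighter probe set (-0.18) and fell by 0.40 at the dimmer one (adjusted p = 0.0231, overlapping groups). TTK, the kinase MPS1 that starts the checkpoint signal, read 5.65, 5.31, 5.50, 3.90 and 5.77 against 5.08 to 5.39, so that its difference was -0.04 with replicate 4 and 0.29 without it, called in neither (adjusted p = 0.941 and 0.0535). CENPE read 1.55 to 1.88 and 1.85 to 2.47, above background on 1 control array only.

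**Figure D2:**
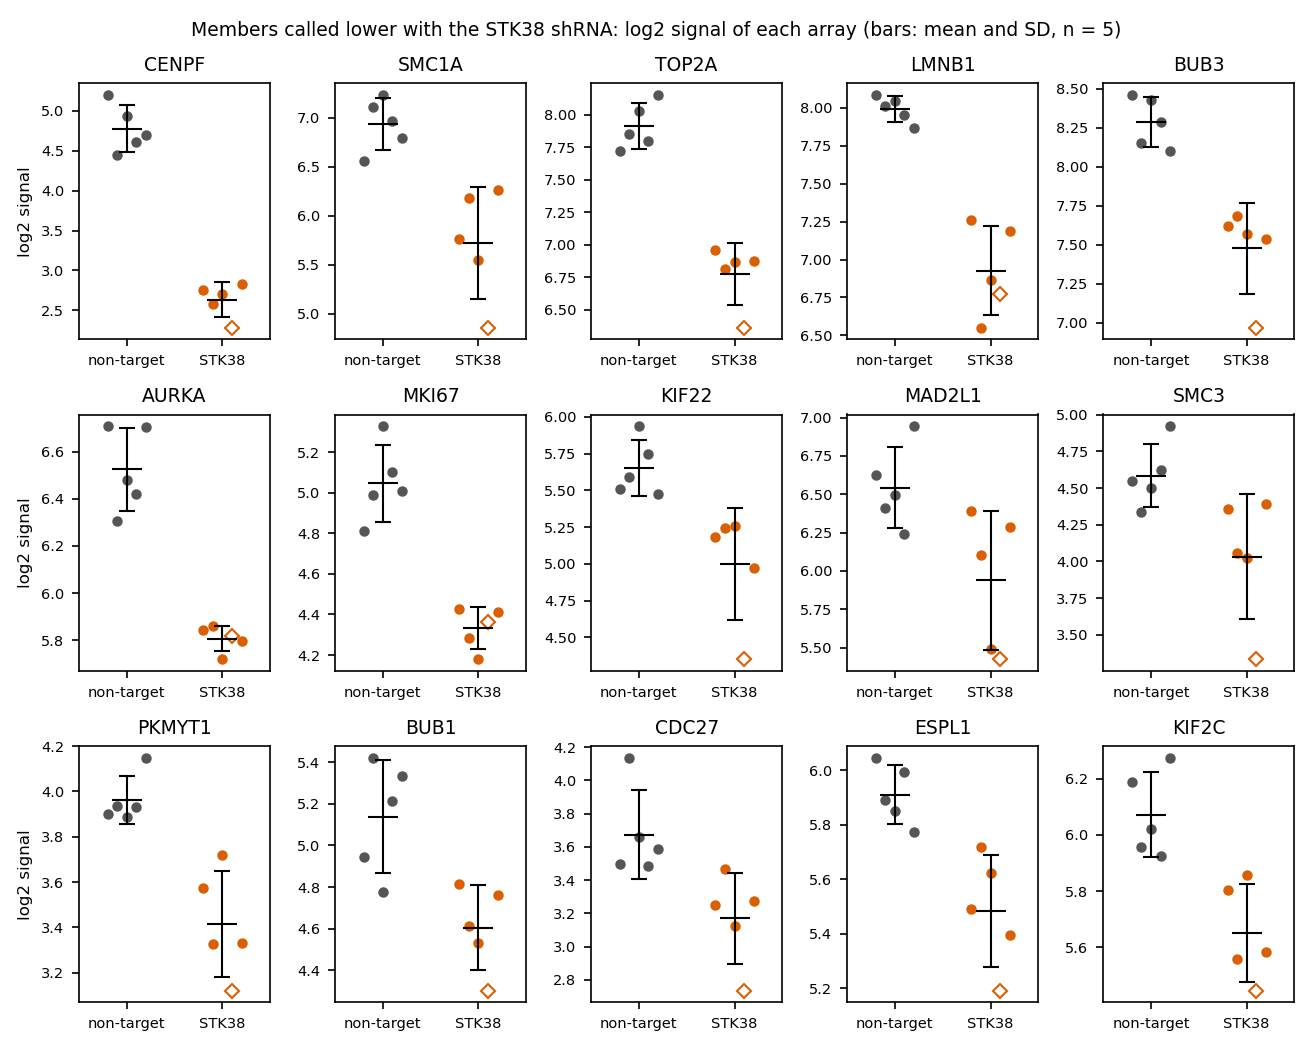
Log2 signal (vertical axis, own scale for each gene) of every array for the 15 members called lower, in order of the size of the fall. Filled points are arrays, the open diamond is STK38 shRNA replicate 4, and bars give mean and SD of 5 arrays; CENPF shows the widest gap, 2.28 to 2.83 against 4.44 to 5.21, while BUB1, MAD2L1 and SMC3 overlap.

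The genes of the APC/C and of anaphase split in both directions. Of 6 tested, 3 rose, 2 fell and CDC16, an APC/C subunit, was not called (difference 0.02). Over all probe sets, 14.1% were called higher and 15.8% lower. The rise of UBE2C and the fall of CDC27 were no longer called without some single arrays, as given below. CDC20, which activates the APC/C in mitosis, read 7.34, 7.20, 7.49, 7.09 and 7.09 with the STK38 shRNA and 6.89, 6.76, 6.98, 6.80 and 6.97 in the controls. No array overlapped, and the rise was 0.37 (SE 0.096, adjusted p = 0.00934). PTTG1, securin, read 8.77, 8.83, 8.70, 8.97 and 8.82 against 8.39, 8.64, 8.51, 8.50 and 8.24, again without overlap, a rise of 0.37 (SE 0.080, adjusted p = 0.00287). On the linear scale each of these is a rise of 1.29-fold, and without replicate 4 the log2 values were 0.40 for CDC20 and 0.33 for PTTG1.

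UBE2C, the ubiquitin-conjugating enzyme of the APC/C, rose by 0.28 (SE 0.089, adjusted p = 0.0280), from 7.98 to 8.37 in the controls to 8.28 to 8.60; the call was lost without STK38 shRNA replicate 1 (adjusted p = 0.0634) or 3 (0.0766) or control replicate 2 (0.0725) or 4 (0.0787). CDC27, an APC/C scaffold subunit, fell by 0.50 (SE 0.16, adjusted p = 0.0273), and control replicate 2, at 4.14 where the other controls read 3.49 to 3.66, bore on it: without that array the call was lost (adjusted p = 0.0742), as it was without STK38 shRNA replicate 3 (0.0558) or control replicate 3 (0.0517). Without STK38 shRNA replicate 4 the difference of CDC27 was -0.39 and still called (adjusted p = 0.0288). ESPL1, separase, the protease that PTTG1 holds inactive, read 5.49, 5.72, 5.62, 5.19 and 5.39 against 6.05, 5.89, 5.85, 5.99 and 5.77. It fell by 0.43 with no overlap (SE 0.12, adjusted p = 0.0108), so securin and separase moved in opposite directions on these arrays.

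**Figure D3:**
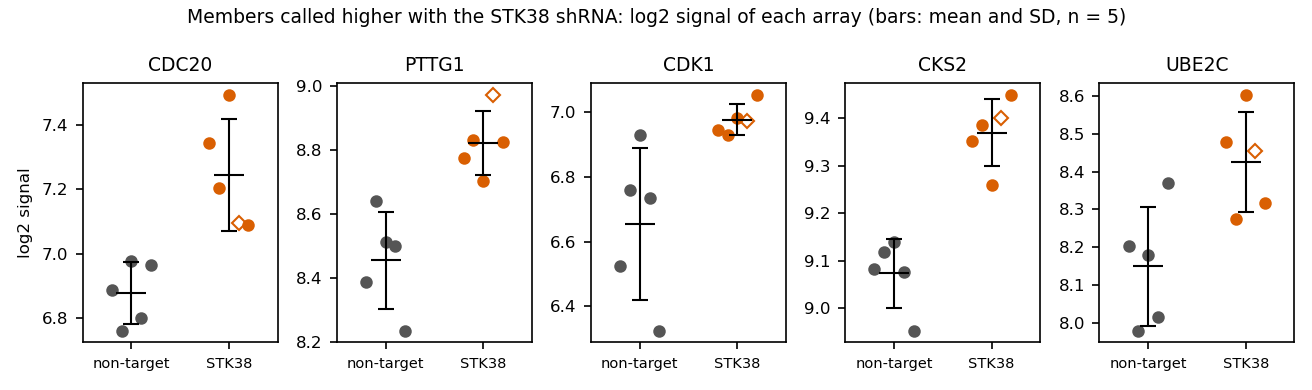
Log2 signal (vertical axis, own scale for each gene) of every array for the 5 members called higher. Points are arrays, the open diamond is STK38 shRNA replicate 4, and bars give mean and SD of 5 arrays; for CDC20, PTTG1, CDK1 and CKS2 every STK38 shRNA array lies above every control array, and for UBE2C the groups overlap.

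All 5 kinesins tested had a difference below 0, and 2 were called lower, beside 15.8% of all probe sets. None was called higher, beside 14.1%. KIF22, a kinesin that binds chromosome arms, read 5.19, 5.24, 5.26, 4.35 and 4.97 with the STK38 shRNA and 5.51, 5.59, 5.94, 5.75 and 5.48 in the controls. The groups did not overlap, and it fell by 0.65 (SE 0.17, adjusted p = 0.00822), or by 0.49 without replicate 4 (adjusted p = 0.00299). KIF2C, or MCAK, which takes microtubule ends apart at the centromere, fell by 0.42 (SE 0.11, adjusted p = 0.0108), from 5.92 to 6.27 down to 5.45 to 5.86. KIF14, a kinesin of the midzone, had the wide difference of -0.58 (SE 0.24, adjusted p = 0.0849), with replicate 4 at 4.14 and the others at 5.23 to 5.55; without that array it was -0.33. KIF11, the spindle motor Eg5, had -0.25 and KIF23, a motor of cytokinesis, -0.22 (95% interval -0.49 to 0.06), neither called. The spindle genes HMMR and STMN1 (stathmin) differed by 0.15 (95% interval -0.07 to 0.37) and 0.04 (-0.18 to 0.25).

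In cohesin, the SMC ring genes fell and the other subunits were not called. SMC1A read 5.76, 6.18, 5.55, 4.86 and 6.26 with the STK38 shRNA and 6.56, 7.10, 7.23, 6.96 and 6.79 in the controls. Every STK38 shRNA array was below every control, and the fall was 1.21 (SE 0.22, adjusted p = 0.000732), or 0.99 without replicate 4, its lowest array. The dimmer SMC1A probe set did not show this: it had a difference of -0.06 (SE 0.22, adjusted p = 0.884) with all arrays and of -0.33 (adjusted p = 0.0183) without replicate 4, so the mean of both probe sets gave a fall of 0.64. SMC3, the partner of SMC1A in the ring, read 4.36, 4.06, 4.03, 3.33 and 4.39 against 4.55, 4.34, 4.50, 4.62 and 4.92. STK38 shRNA replicates 1 and 5 overlapped the lowest control, and it fell by 0.55 (SE 0.19, adjusted p = 0.0357). Without replicate 4, its lowest array, the difference shrank to -0.38 and was still called (adjusted p = 0.0303). The difference was no longer called, at -0.57 to -0.47, without STK38 shRNA replicate 2 (adjusted p = 0.0611) or 3 (0.0647), without control replicate 1 (0.0628), 3 (0.0559), 4 (0.0723) or 5 (0.0953), and at -0.56 with centred arrays (0.0505). RAD21, the kleisin that closes the ring, had 9.42 ± 0.12 against 9.56 ± 0.05 (difference -0.14, 95% interval -0.27 to -0.01, adjusted p = 0.115). STAG1 and STAG2, the alternative subunits that bind RAD21, had -0.09 (95% interval -0.39 to 0.20) and -0.13 (-0.43 to 0.18).

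Among the members that compact chromosomes, TOP2A fell and the condensin members SMC4, NCAPD2 and NCAPH were not called. SMC2, a condensin gene outside the member list, was called lower. TOP2A, the topoisomerase that untangles sister chromatids, read 6.96, 6.81, 6.87, 6.36 and 6.87 with the STK38 shRNA and 7.72, 7.85, 8.03, 7.80 and 8.15 in the controls. The gap between the groups was wide, and the fall was 1.14 (SE 0.12, adjusted p = 5.26e-06), with -0.97 and -0.91 at the other probe sets (adjusted p = 0.000646 and 4.51e-05). SMC4, a condensin ATPase, had -0.47 (SE 0.19, adjusted p = 0.0760), and was called lower without control replicate 5 (adjusted p = 0.0121) or with array weights (0.0347). NCAPD2, a condensin I subunit, had -0.38 (SE 0.14, adjusted p = 0.0548) and was called lower without STK38 shRNA replicate 1 (0.0464) or 2 (0.0413) or control replicate 1 (0.0233). Other settings also called NCAPD2 lower, among them quantile normalization (adjusted p = 0.0307) and array weights (0.0384). NCAPH was above background on 1 control array and no STK38 shRNA array, so no size is given.

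MKI67, a marker of cycling cells, and the lamin gene LMNB1 were both called lower. LMNB1, lamin B1 of the nuclear lamina, read 7.26, 6.55, 6.87, 6.77 and 7.19 against 8.09, 8.01, 8.05, 7.95 and 7.87, a fall of 1.07 (SE 0.12, adjusted p = 1.19e-05). MKI67, which encodes the Ki-67 antigen that coats mitotic chromosomes, read 4.43, 4.28, 4.18, 4.36 and 4.41 against 4.81, 4.99, 5.33, 5.10 and 5.01, a fall of 0.72 (SE 0.12, adjusted p = 0.000335). Neither pair of groups overlapped, and replicate 4 was not the lowest array at either gene: without it the falls were 1.03 and 0.72. The second MKI67 probe set had -0.48 and was not called (adjusted p = 0.102).

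Of the 13 members with more than 1 tested probe set, AURKA, BUB3 and TOP2A were called lower at every one, CCNA2 and BIRC5 at none, and the remaining 8 were called at some probe sets and not at others. These 8 were CCNB1, CDK1, WEE1, PKMYT1, CENPC, MAD2L1, SMC1A and MKI67. No gene was called in opposite directions by its probe sets.

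Leaving out replicate 4 kept all 20 calls and added 2. Without it, 16 members were called lower and 6 higher, beside 16.8% and 20.5% of all probe sets, the added calls being BUB1B and CDC25B. The median of the members moved from -0.21 to -0.16.

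**Figure D4:**
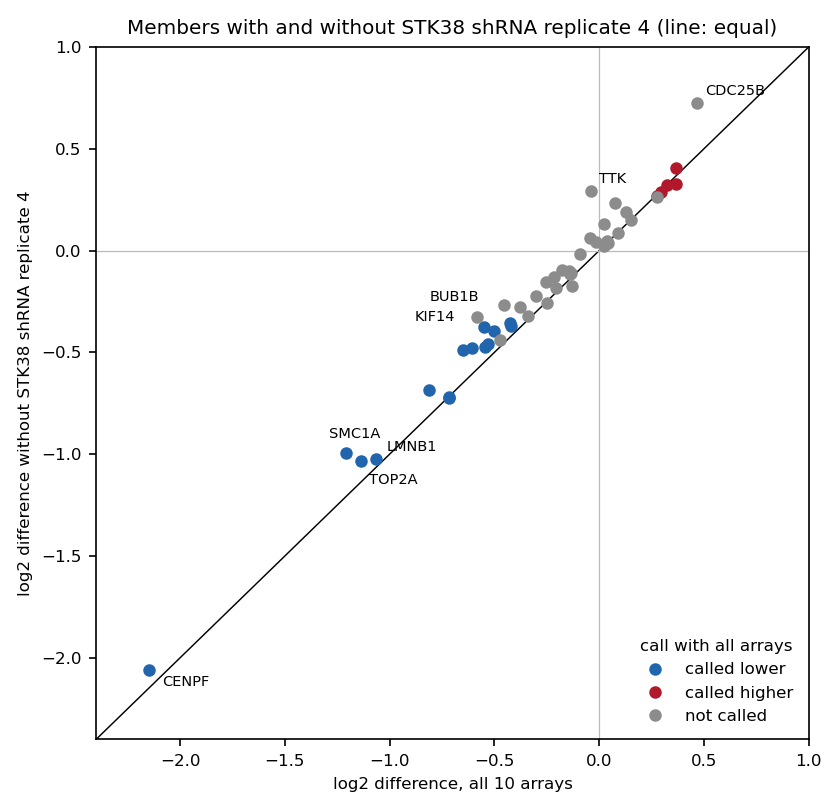
Log2 difference of each of the 49 members with all 10 arrays (horizontal axis) and without STK38 shRNA replicate 4 (vertical axis), coloured by the call with all arrays; the line marks equal values. TTK (-0.04 and 0.29) and CDC25B (0.47 and 0.72) lie furthest above the line among those named, and CENPF (-2.15 and -2.06) keeps its place.

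Of 104 further genes of mitosis in a list compiled by hand, 57 were tested; 14 were called lower and 3 higher (24.6% and 5.26%, beside 15.8% and 14.1% of all probe sets), with a median of -0.016. Without STK38 shRNA replicate 4, 13 were called lower and 8 higher, where 16.8% of all probe sets were called lower and 20.5% higher. MYBL2, the B-MYB factor of the complex that switches on G2 and M genes, fell by 0.85 (SE 0.12, adjusted p = 0.000110), RCC1, which loads RAN with GTP on chromatin, by 0.79 (SE 0.12, adjusted p = 0.000186) and TOP2B, the relative of TOP2A, by 0.73 (SE 0.067, adjusted p = 1.66e-06). TMPO, a protein of the inner nuclear membrane, was above background on all control arrays but not on any STK38 shRNA array, a fall of at least 1.53-fold (adjusted p = 3.80e-05). The 3 called higher were MAPRE1 (EB1, which tracks microtubule plus ends; difference 0.71, adjusted p = 8.01e-05), LMNB2 (lamin B2; 0.53, adjusted p = 0.000223) and KPNA2 (an importin; 0.52, adjusted p = 0.000251). The lamin genes LMNB1 and LMNB2 were therefore called in opposite directions. By role, 1 of 7 further kinetochore genes (KNTC1), 2 of 3 kinesins (KIFC1 and KIF20B), 1 of 5 cohesin regulators (NIPBL), 2 of 3 condensin genes and topoisomerases (SMC2 and TOP2B), 3 of 9 switches of entry and exit, 4 of 19 spindle genes and 1 of 6 nuclear envelope genes were called lower, and none of 5 further APC/C genes was called in limma (smallest unadjusted p 0.0925, at FZR1). KIF20B was above background on 1 STK38 shRNA array, and its call was lost without replicate 4 (difference -0.33, adjusted p = 0.0547).

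Genes of origin licensing and of the replication fork were called lower at higher shares than the mitosis members. Of 16 origin licensing genes tested, 13 were called lower and 0 higher (81.3% lower), with a median of -0.83; of 25 replication fork genes, 19 were called lower and 0 higher (76.0% lower), with a median of -0.53. Without replicate 4 the counts were 14 lower and 0 higher, and 19 lower and 1 higher. The mitosis members stood at 30.6% lower with 5 rises and a median of -0.21. These shares describe hand-compiled lists on the same arrays, and the difference between the lists was not tested.

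**Figure D5:**
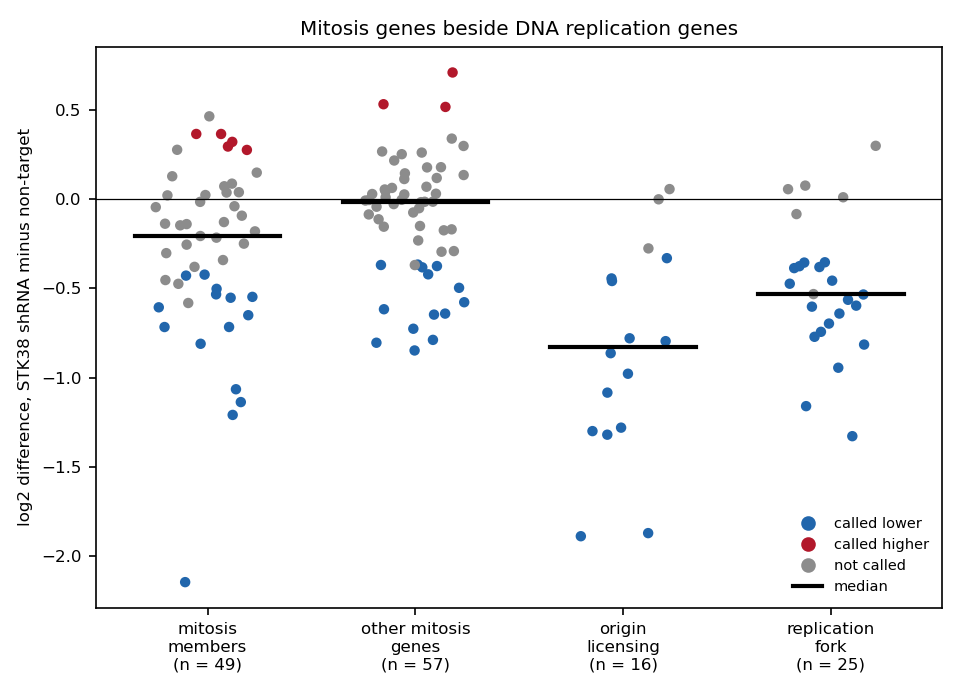
Log2 difference (vertical axis) of the tested genes in 4 lists: the 49 mitosis members, 57 further mitosis genes, 16 origin licensing genes and 25 replication fork genes. Points are genes, coloured by call, and the black line is the median of the list (-0.21, -0.016, -0.83 and -0.53); with all 10 arrays, called rises are present in both mitosis lists and absent from the replication lists.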

How the data were processed

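Biotin-labelled RNA of each sample went onto an Affymetrix HG-U95Av2 array (1 colour), per the labels. The authors deposited log2 values of 12625 probe sets; GCRMA and affy are named, without a version, per the submitters' processing notes, and that the scale is log2 was inferred from the range. GCRMA draws dim probe sets to a common floor, which shrinks their differences. Other versions and builds are not given in the sources used here.

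Gene symbols came from GEO's platform annotation and were updated to RefSeq (GRCh38.p14) by Entrez identifier; of 12558 non-control probe sets, 10943 had 1 gene, 545 several and 1070 none. Those with a mean under the 40th percentile (1.93) were left out, and 7535 were tested in R 4.3.3 with limma 3.58.1 (trended eBayes without covariates, two-sided, residual degrees of freedom 8, Benjamini-Hochberg over all 7535, threshold 0.05). The array background was the 90th percentile of 23 negative control probe sets (2.36 to 2.66); "at least" folds are against the higher of it and the signal. The fit was tested on simulated data in which few probe sets were changed. It recovered 18.6% of log2 changes of 0.3, 56% of 0.5 and 94.8% of 1, so small changes could go uncalled. Of its calls there, 5.61% were false. Plots used matplotlib 3.10.9.

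Members, lists, filter and background were chosen with earlier results of these data known. Named were called or non-overlapping members, up to 2 others per role, and up to 4 further mitosis genes per direction; other names were chosen after their values were seen. Promoters are from RefSeq. Alternatives covered the filter, scaling, weights, variance model, threshold, probe set choice, background, replicate block and each array.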

Additional observations from a re-analysis of the deposited data

Results flagged for a closer look

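In 11 of 98 groups of 5 arrays, 1 array lay further from the rest than Dixon's test allows at the 95% level; chance flags about 1 in 20 such groups, and 8 of the 11 were STK38 shRNA replicate 4, always low. On that array CDC25B read 3.70 (the others 4.74 to 5.16), NEK2 3.09 (3.81 to 4.02), BUB1B 5.47 (6.27 to 6.50), BUB3 6.97 (7.54 to 7.68), TTK 3.90 (5.31 to 5.77), CDC16 5.71 (6.18 to 6.35), KIF14 4.14 (5.23 to 5.55) and TOP2A 6.36 (6.81 to 6.96), all log2. The other 3 were high values: CDC25C at 2.59 on STK38 shRNA replicate 5 (2.34 to 2.41), PKMYT1 at 4.15 on control replicate 5 (3.89 to 3.94) and CDC27 at 4.14 on control replicate 2 (3.49 to 3.66).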

How the results depend on the processing

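Of the 15 members called lower, 9 (PKMYT1, AURKA, CENPF, BUB3, KIF22, SMC1A, TOP2A, MKI67 and LMNB1) stayed called under all 19 alternatives, as did 3 of the 5 called higher (CKS2, CDC20 and PTTG1); all 20 kept their direction. At an adjusted p of 0.01, 9 members were lower, 3 higher and 1494 probe sets called in all. Leaving out single arrays gave 12 to 17 members lower, 3 to 6 higher and a median of -0.27 to -0.16, with 1947 to 2817 probe sets called in all. Quantile normalization gave 18 lower and 6 higher, and array weights 19 and 6. Calls over all probe sets also rose with array weights, to 2970 from 2256 in the main fit. Of 29 members not called, 8 were called under some alternative and 7, all near 0 in the main fit, changed sign. With array weights TPX2 had 0.049, TTK 0.30 and STMN1 -0.018; with quantile normalization FOXM1 had 0.029, TPX2 0.028 and TTK 0.038. Without single arrays CCNA2 ran from -0.019 to 0.060, FOXM1 from -0.10 to 0.063, NEK2 from -0.00090 to 0.23, TPX2 from -0.069 to 0.041, TTK from -0.17 to 0.29, CDC16 from -0.026 to 0.13 and STMN1 from -0.030 to 0.091. The cause was not tested. With the replicate block, 17 members were lower, 4 higher and 2159 probe sets called, against 2256 without it. ZWINT and BUB1B were then called lower (adjusted p = 0.0395 and 0.0339), and CDK1 was no longer called (0.0519). The labels do not say whether same-numbered arrays were paired. Of 5 same-numbered pairs, 1 had deviations that correlated over 0.1 (-0.21 to 0.19), and 1 of 5 arrays correlated best with its own number. Correlations over all tested probe sets cannot settle whether the arrays were paired. With a background that left out the reverse-strand ACTB and GAPDH controls, 48 members were above it on every array, against 46. Signals near background limit CENPE, NCAPH and CDC25C.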
